A study of Mus musculus with 2 samples.

Results

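Matrix metalloproteinases are zinc-dependent enzymes that cut collagen, elastin and other proteins of the extracellular matrix, and tissue inhibitors of metalloproteinases (TIMPs) bind them and block their active site. The 9 genes described here are the metalloproteinases Mmp12, Mmp13, Mmp19, Mmp14, Mmp2 and Mmp9 and the inhibitors Timp1, Timp2 and Timp3, found by symbol among the 32285 genes of the matrix. They were followed across macrophage states and epithelial nuclei, which were defined by marker genes that include none of the 9.

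Nuclei of tumour-associated macrophages (TAMs) came from mammary tumours of control-PyMT mice and of MYC-PyMT mice, whose full name in the series is S100a8-creRosa26-LSL-MYCPyMT, with 1 sample per genotype. Both lines carry PyMT, the polyoma middle T oncogene, and were backcrossed to B6. S100a8, the promoter of the cre, is best known as a neutrophil gene. Recipients of both genotypes were lethally irradiated at 7 weeks of age, received 3000000 bone marrow cells of Fcgr1-cre-Rosa26LSL-H2B-mCherry/+ donors, and ate a low protein diet from 2 weeks later for 6 weeks. The MYC allele is named for the recipients and not for the marrow donors, and the labels do not say how many mice entered a sample. TAMs were sorted as CD45+ F4/80+ Vcam+ cells negative for SiglecF, Ly6G, B220 and Ly6C, and their nuclei as mCherry+ SYTO9+ CD11b- events. The 10x Genomics 3' chemistry was used, which counts unique molecular identifiers (UMIs), each standing for 1 captured RNA molecule.

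Macrophages are a major source of Mmp12, or macrophage elastase, and they also make Mmp14, a membrane-anchored enzyme. Mmp14 activates the soluble gelatinase Mmp2 on the cell surface, and it does so through Timp2, which bridges the enzyme and the inactive form of Mmp2; an excess of Timp2 blocks Mmp14. Mmp13 is an interstitial collagenase and Mmp9 another gelatinase. Mmp19 is a secreted enzyme active on basement membrane proteins. Timp3 differs from the other inhibitors in that it binds to the matrix and also blocks several ADAM proteases.

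Of 1838 barcodes, 1812 nuclei with 7342649 UMIs were kept. Each barcode ended in suffix 1 or 2, and these 2 sets are called well 1 and well 2 here, a name the labels do not give. Well 1 had 1377 nuclei and well 2 had 435, with 9 barcode sequences present in both. No label ties a well to a genotype, so genotypes were not compared, and the data form 1 pooled sample with no replicate error. Levels are CPM, the summed UMIs of a gene scaled to the summed UMIs of the same nuclei, and all intervals are exact 95% intervals that cover counting error only. The sorted population was mixed: 1249 nuclei carried macrophage markers (macrophage-like, median 2804 UMIs) and 267 carried epithelial markers (epithelial-like, median 5341 UMIs). A further 285 low-UMI nuclei stayed unnamed (cluster 4), and 11 were T-cell-like. The 10 epithelial markers summed to 4184 CPM in epithelial-like and 416 CPM in macrophage-like nuclei, and the 11 macrophage markers to 421 and 5318 CPM. Wells stood apart in composition. Well 1 gave 869 macrophage-like and 237 epithelial-like nuclei, and well 2 gave 380 and 30.

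Macrophage-like nuclei fell into 10 states when clustered again without the 9 genes, and 4 could be named. State 2 (187 nuclei) was immediate early-like, state 3 (178) inflammatory-like, state 8 (85) lipid-like, with Gpnmb at 1068 CPM, and state 10 (49) resident-like, with F13a1 at 4950 CPM. State 3 also held every immediate early marker. State 4 (141 nuclei) stayed unnamed and carried monocyte markers at 1485 CPM and dendritic markers at 129 CPM beside F13a1 at 735 CPM. State 5 (101 nuclei), unnamed, had F13a1 at 1180 CPM. States 2 and 3 lay almost wholly in well 1 (183 and 176 nuclei) and state 10 in well 2 (49 of 49), while state 8 was split between well 1 (36 nuclei) and well 2 (49). Of the 366 Gpnmb UMIs of state 8, 365 were in its well 2 nuclei.

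Mmp13 and Mmp12 are neighbours on chromosome 9, on the forward strand, with 61049 bases between them (GRCm38, GENCODE vM21). Mmp13 spans chr9:7272514-7283331 and Mmp12 chr9:7344381-7369499. Because these genes shared nuclei, the 250 bases before each annotated RefSeq start (GRCm38.p6, forward strand) are shown, with any TGACTCA or TGAGTCA in capitals. These 7 letters are the binding motif of AP-1, the factor made of Fos and Jun proteins. Each is the reverse complement of the other, so both strands were searched.

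Mmp13, chr9:7272264-7272513: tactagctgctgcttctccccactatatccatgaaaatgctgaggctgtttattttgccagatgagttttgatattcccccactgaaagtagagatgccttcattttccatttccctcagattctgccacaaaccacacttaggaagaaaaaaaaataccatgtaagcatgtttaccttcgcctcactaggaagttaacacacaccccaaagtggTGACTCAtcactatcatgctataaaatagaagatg

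Mmp12, first start, chr9:7344147-7344396: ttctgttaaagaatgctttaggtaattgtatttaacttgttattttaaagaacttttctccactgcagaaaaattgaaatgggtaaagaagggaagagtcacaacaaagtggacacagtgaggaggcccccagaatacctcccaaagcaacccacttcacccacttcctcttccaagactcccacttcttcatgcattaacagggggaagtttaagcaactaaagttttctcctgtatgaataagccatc

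Mmp12, second start, chr9:7347124-7347373: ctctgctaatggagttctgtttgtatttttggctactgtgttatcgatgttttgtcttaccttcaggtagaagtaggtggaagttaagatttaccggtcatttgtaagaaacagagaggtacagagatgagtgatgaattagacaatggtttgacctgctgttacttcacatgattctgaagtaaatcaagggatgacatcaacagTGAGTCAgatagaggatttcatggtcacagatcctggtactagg

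Mmp13 held TGACTCA, beginning 35 bases before its start, and Mmp12 held TGAGTCA 44 bases before its second start and neither form before its first. The window of the second start lies within the Mmp12 gene and outside its annotated exons, and the last 16 bases of the first window are exonic in GENCODE. Of the 32851 windows in the same table, 4.46% held either form. RefSeq windows were found for 6 of the 9 genes, and those of Mmp14, Timp1, Timp2 and Timp3 held neither form. The Timp2 window lies wholly within the Timp2 gene, with 203 of its 250 bases exonic in GENCODE, and 40 bases of the Timp3 window are exonic. A match of letters is a description and does not show binding.

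Between macrophage-like and epithelial-like nuclei, 7 of the 9 genes had at least 20 UMIs and were counted. Mmp12, Mmp13, Mmp19 and Mmp14 were at least 2-fold higher in macrophage-like nuclei, which makes 4 of 7, where 16.4% of the 12882 genes counted were. Timp3 was at least 2-fold lower, 1 of 7, where 29.7% of genes were. Timp2 and Mmp2 lay between. The median ratio was 2.79 over these members and 0.770 over all genes. No test was possible with pooled samples.

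Mmp12, the elastase, had 1371 UMIs in macrophage-like nuclei (348 CPM, 330 to 367) and 17 in epithelial-like nuclei (5.52 CPM, 3.21 to 8.83), a ratio of 63.1 (39.3 to 109). At least 1 Mmp12 UMI was found in 21.3% of macrophage-like and 6.37% of epithelial-like nuclei. With each nucleus thinned to 1000 UMIs, for the 1169 and 248 nuclei deep enough, the shares were 12.5% (10.6 to 14.5) and 2.02% (0.658 to 4.64). No epithelial-like nucleus held more than 1 Mmp12 UMI. Their level was 1.59% of the macrophage-like level. The 11 macrophage markers, which epithelial cells should lack, stood in epithelial-like nuclei at 1.27% to 28.8% of their macrophage-like level (median 3.72%), so the Mmp12 UMIs there were at the level of background. The size of the ratio varied with weighting: the mean of CPM over nuclei gave 12.9, thinned counts gave 16.3 and well 2 alone 8.11, a lower bound there because its 30 epithelial-like nuclei held no Mmp12 UMI.

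Mmp13, the collagenase, had 153 UMIs in macrophage-like nuclei (38.8 CPM, 32.9 to 45.5) and 1 UMI in epithelial-like nuclei, a ratio of 120 (21.2 to 4758). Mmp19 had 60 UMIs in macrophage-like nuclei (15.2 CPM, 11.6 to 19.6) and 3 in epithelial-like nuclei, a ratio of 15.6 (5.10 to 78.0). Both ratios rest on so few epithelial UMIs that their size is loosely bounded. The Mmp19 ratio was 2.49 within well 1 and at least 2.99 within well 2, whose 30 epithelial-like nuclei held no Mmp19 UMI. Well 2 held 53 of the 60 macrophage-like UMIs of Mmp19, while 237 of the 267 epithelial-like nuclei were in well 1.

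Mmp14, the membrane-anchored enzyme, was present in both classes. Its level was 231 CPM (216 to 247; 910 UMIs) in macrophage-like and 82.8 CPM (72.9 to 93.6; 255 UMIs) in epithelial-like nuclei, a ratio of 2.79 (2.43 to 3.22). The epithelial-like level was 35.8% of the macrophage-like level, above all 11 macrophage markers. Within well 1 the ratio was 3.38, and within well 2 it was 1.25, under 2-fold. Timp2 stood at 205 CPM (191 to 220) in macrophage-like and 129 CPM (116 to 142) in epithelial-like nuclei, a ratio of 1.59 (1.41 to 1.80), with 1.06 within well 1 and 2.34 within well 2.

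Mmp2, which Mmp14 and Timp2 together activate, was sparse. It had 49 UMIs in macrophage-like nuclei (12.4 CPM, 9.20 to 16.4) and 26 in epithelial-like nuclei (8.44 CPM, 5.51 to 12.4), a ratio of 1.47 whose interval (0.898 to 2.47) includes 1. The wells went opposite ways, at 5.33 within well 1 and 0.0398 within well 2, where 17 Mmp2 UMIs came from 30 epithelial-like nuclei. The 12 epithelial-like nuclei with Mmp2 had epithelial markers at 1394 CPM, basal epithelial markers at 1639 CPM and fibroblast markers at 670 CPM. Over all epithelial-like nuclei those lists stood at 4184, 102 and 43.5 CPM. Mmp2 is typically a stromal gene, and the part of other cells in these UMIs was not tested.

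Timp3, the matrix-bound inhibitor, was higher in epithelial-like nuclei. It had 722 UMIs in epithelial-like nuclei (234 CPM, 218 to 252) and 25 in macrophage-like nuclei (6.35 CPM, 4.11 to 9.37), a ratio of 0.0271 (0.0174 to 0.0403). The macrophage-like level was 2.71% of the epithelial-like level, within the 1.47% to 18.0% at which the 10 epithelial markers stood in macrophage-like nuclei (median 7.66%). Timp3 lies inside Syn3 on the opposite strand, and whether counting used the strand is not given in the sources used here. Syn3 itself had 380 UMIs in epithelial-like and 6 in macrophage-like nuclei, so reads of the pair may not be fully separable.

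Timp1 and Mmp9 were too sparse to place. Timp1 had 5 UMIs in macrophage-like nuclei (1.27 CPM, 0.412 to 2.96) and 8 in epithelial-like nuclei (2.60 CPM, 1.12 to 5.12). Mmp9 had 0 UMIs in 1249 macrophage-like nuclei and 2 UMIs in epithelial-like nuclei. The upper end of its interval in macrophage-like nuclei was 0.937 CPM, and the floor of 3 counts stood at 0.762 CPM.

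**Figure D1:**
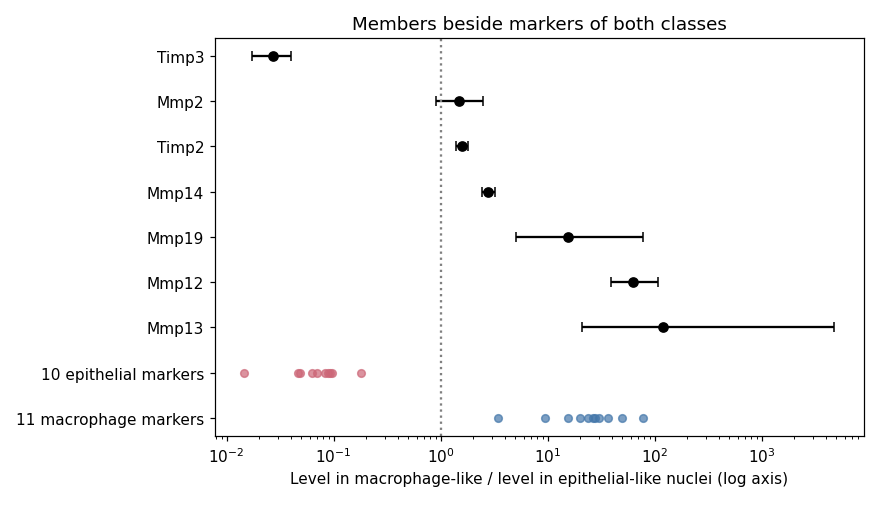
Ratio of the level in macrophage-like to that in epithelial-like nuclei (log axis) for 7 of the genes (black, bars are exact 95% intervals), beside 11 macrophage markers (blue) and 10 epithelial markers (red). Mmp12, Mmp13 and Mmp19 lie in the range of the macrophage markers or above it, Timp3 lies among the epithelial markers, and Mmp14, Timp2 and Mmp2 lie below the macrophage markers.

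Among macrophage states, 6 of the 7 members with at least 20 UMIs in macrophage-like nuclei were at least 2-fold higher in some state than in the other macrophage-like nuclei. That share has to be read against 52.5% of the 10170 genes counted, so reaching 2-fold somewhere was common. The states differed by gene. Mmp12 was highest in state 8, Mmp19 in state 4, and Timp2 in resident-like state 10, while Mmp14 reached 2-fold in none. State 8 was named lipid-like over both wells, but 327 of its 423 Mmp12 UMIs were in its well 1 nuclei, which held 1 Gpnmb UMI.

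Mmp12 stood at 1235 CPM (1120 to 1358) in state 8, 765 CPM (689 to 846) in state 3 and 583 CPM (524 to 648) in state 2. It was 238 CPM in the unnamed cluster 4 and between 59.6 and 182 CPM in states 1, 4, 6, 7 and 9. The lowest levels were 17.8 CPM (5.77 to 41.5) in state 5 and 14.5 CPM (3.00 to 42.5) in state 10. The intervals of states 8, 3 and 2 do not overlap each other, whereas those of states 5 and 10 do. State 8 exceeded the other macrophage-like nuclei 4.68-fold (4.17 to 5.26), and 10.4% of genes were at least 2-fold higher there. State 3 exceeded them 2.64-fold (2.34 to 2.98), where 6.23% of genes were at least 2-fold higher. Within well 1 the ratio was 7.86 (6.91 to 8.93) for state 8 and 1.99 (1.76 to 2.26), under 2-fold, for state 3. Without the 2 nuclei of state 8 richest in Mmp12, the ratio was 3.50, and state 3 treated likewise gave 2.15. In state 2 the 2 richest nuclei held 114 of 352 Mmp12 UMIs, and without them its level was 400.5 CPM and its ratio 1.31.

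The Mmp12 of state 8 came mostly from nuclei without Gpnmb UMIs, although Gpnmb is among the markers that named it. In well 1 the state held Mmp12 at 2751 CPM (2461 to 3066; 36 nuclei) and 1 Gpnmb UMI. In well 2 it held Mmp12 at 429 CPM (348 to 524; 49 nuclei) and Gpnmb at 1631 CPM. Within well 2, the 25 nuclei of state 8 with Gpnmb had Mmp12 at 234 CPM (157 to 336), and the 24 without had 671 CPM (520 to 852). Mmp12 was detected in 9 of those 25 nuclei (29 UMIs) and in 8 of those 24 (67 UMIs). That split used unthinned counts, with medians of 4697 and 3098.5 UMIs. State 7 went the other way. Its 8 well 2 nuclei with Gpnmb had Mmp12 at 440 CPM (211 to 809), and its 49 without had 73.8 CPM (35.4 to 136). Those levels came from 2 and 3 nuclei with Mmp12, holding 10 UMIs in each group. In well 1, 2 nuclei of state 7 with Gpnmb had 703 CPM (283 to 1449), and 33 without had 211 CPM (138 to 309). The inflammatory list stood at 3306 CPM in the state's well 1 nuclei and 2042 CPM in its well 2 nuclei, and the lipid list at 2928 and 6212 CPM. State 8 is therefore 1 cluster with unlike profiles. Its difference between wells cannot be told apart from the wells themselves. Within well 2, the Gpnmb split of state 8 was in the level of Mmp12 and not in the share of nuclei with Mmp12. It rests on few nuclei, which the intervals do not cover. Well 1 had only 1 state 8 nucleus with Gpnmb. Gpnmb had 8 UMIs in all macrophage-like nuclei of well 1 and 396 in those of well 2.

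**Figure D2:**
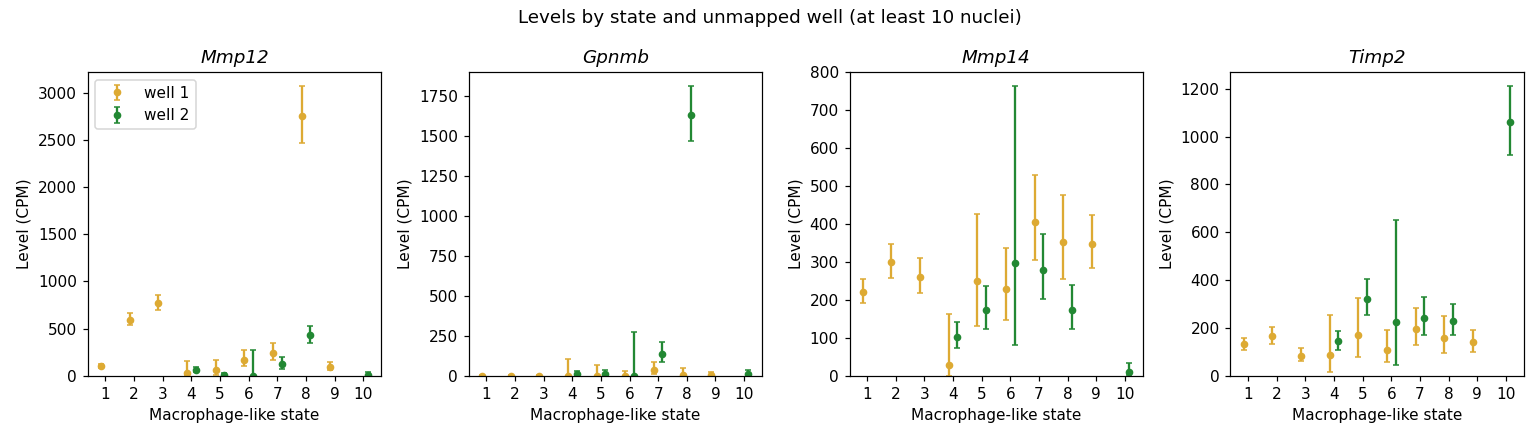
Levels in CPM (linear axes) of Mmp12, Gpnmb, Mmp14 and Timp2 in each macrophage-like state by well, for state and well combinations of at least 10 nuclei; bars are exact 95% Poisson intervals. Mmp12 of state 8 reaches 2751 CPM in well 1, Gpnmb of state 8 reaches 1631 CPM in well 2, and Timp2 of state 10 reaches 1061 CPM.

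Mmp13 was the most unevenly held of the genes counted. It stood at 111 CPM (86.1 to 141) in state 2, 88.1 CPM (63.8 to 119) in state 3 and 58.4 CPM (35.7 to 90.2) in state 8. It was 17.7 CPM or lower in the other states and at 0 UMIs in states 4 and 10. The level of state 2, 4.31-fold (3.08 to 6.00) above the other macrophage-like nuclei where 2.6% of genes were at least 2-fold higher, rests on 2 nuclei with 29 UMIs each. Without them it was 15.1 CPM, a ratio of 0.587 (0.260 to 1.17), which turns the direction. State 3 without its 2 richest nuclei stood at 52.3 CPM, a ratio of 1.64. All but 1 of the 153 UMIs were in well 1, and the 49 nuclei of state 8 in well 2 held none. Within well 1 the order differed. State 8 had Mmp13 at 168 CPM (103 to 260), a ratio of 3.28 (1.94 to 5.27), with 10 of its 20 UMIs in 1 nucleus. State 2 had 113 CPM (ratio 2.80) and state 3 had 89.0 CPM (ratio 1.80, 1.24 to 2.59). The ratio of state 8 was not computed without that nucleus.

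Mmp12 was found in more of the nuclei with Mmp13 than of those without. Of the 47 well 1 macrophage-like nuclei with Mmp13, 59.6% also had Mmp12, against 24.7% of the others. In thinned counts, the Mmp13-positive nuclei of well 1 had Mmp12 at 3734 CPM against 352 CPM, a ratio of 10.6 (9.30 to 12.1). Of those 25 nuclei, 15 held any Mmp12 UMI. Without the 4 nuclei richest in Mmp13, the ratio was 6.18 (5.15 to 7.38). Across the 13 groups of nuclei, Pearson's r between Mmp12 and Mmp13 on log2(CPM + 10) was 0.88, as a description over groups that share wells and depth.

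Over well 1 as a whole, Il1b and Nlrp3, an inflammatory cytokine and the sensor that drives its release, marked nuclei richer in both genes. In well 1, nuclei with an Il1b UMI in thinned counts had Mmp12 at 794 CPM against 353 CPM without, a ratio of 2.25 (2.0 to 2.52). Mmp13 there was 126 against 36.4 CPM, 3.46 (2.49 to 4.83). Of the 153 macrophage-like Mmp13 UMIs, 4 nuclei held 29, 29, 11 and 10. The Mmp13 ratios for Il1b, Nlrp3 and Fos were not computed without those nuclei, and their intervals do not cover this unevenness. For Nlrp3 the ratios were 3.66 (3.25 to 4.12) for Mmp12 and 5.58 (3.99 to 7.77) for Mmp13. In well 1, state 8 had the highest Mmp12 level, and the highest Mmp13 level with 10 of its 20 UMIs in 1 nucleus. It was nonetheless low in Il1b there, at 101 CPM in 6 of 36 nuclei, with Nlrp3 at 244 CPM. State 3 had 1628 and 912 CPM. Mmp14 stood near 1 for Il1b, at 0.973 (0.813 to 1.16), and at 1.30 for Nlrp3, and Timp2 was lower with Il1b, at 0.566 (0.414 to 0.759). In well 2 the Il1b gate went the other way for Mmp12, at 0.214 (0.0436 to 0.638), on 3 UMIs in the Il1b-positive nuclei.

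Fos, a subunit of AP-1, was a weak divider in well 1. Mmp12 was 526 CPM with Fos and 428 CPM without, a ratio of 1.23 (1.09 to 1.39). The corresponding Mmp13 ratio was 0.675 (0.445 to 1.0). RNA of Fos in a nucleus does not measure the activity of the protein.

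**Figure D3:**
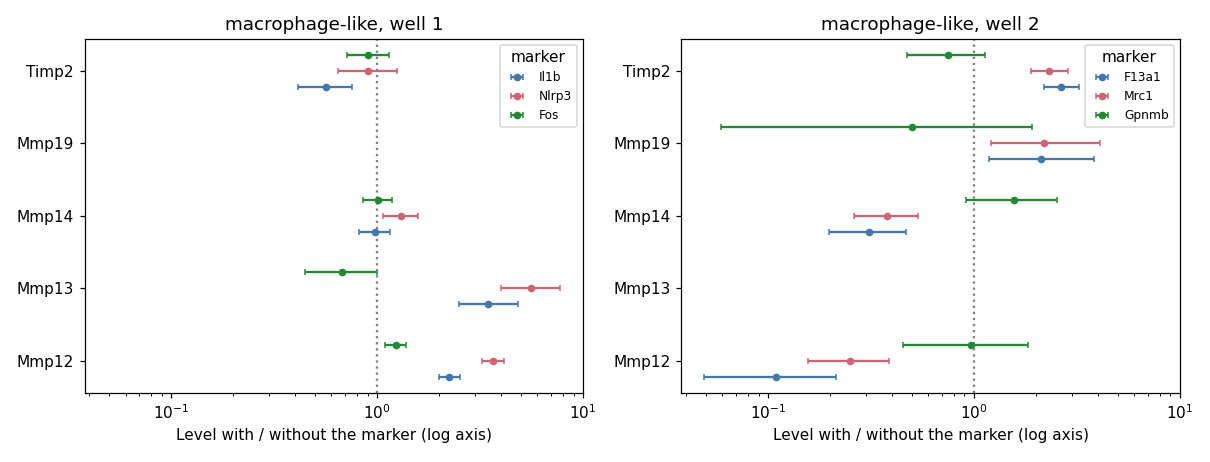
Ratio of the level in nuclei with a marker UMI to that in nuclei without it (log axis), after thinning to 1000 UMIs for the gate, for 3 markers in well 1 (left) and 3 in well 2 (right); bars are exact 95% intervals, and genes under 20 UMIs are not drawn. In well 1, Mmp12 and Mmp13 lie above 1 for Il1b and Nlrp3; in well 2, Timp2 and Mmp19 lie above 1 and Mmp12 and Mmp14 below 1 for F13a1 and Mrc1.

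Mmp19 was highest in state 4, at 72.0 CPM (48.2 to 103; 29 UMIs), followed by resident-like state 10 at 58.1 CPM (30.0 to 102) and state 5 at 28.4 CPM (12.3 to 56.0). Those intervals overlap. State 4 exceeded the other macrophage-like nuclei 8.21-fold (4.77 to 14.1), where 8.4% of genes were at least 2-fold higher, and 2.67-fold (1.5 to 4.78) within well 2. Well 2 held 53 of the 60 UMIs, and states 1, 6 and 9, which are mostly of well 1, held none. In well 2, Mmp19 was 64.1 CPM in nuclei with F13a1, a resident macrophage and monocyte gene, and 30.2 CPM in those without, a ratio of 2.12 (1.19 to 3.82). Mmp19 overlaps Tmem198b and Gm47093 on the opposite strand.

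Mmp14 varied least among states 1 to 9. It ranged from 188 to 337 CPM in 8 of those states, with overlapping intervals for most neighbours, and was highest in state 9 (337 CPM, 274 to 410) and state 7 (336 CPM, 273 to 409). It was lower in state 4, at 96.8 CPM (68.9 to 132). Resident-like state 10 held 2 Mmp14 UMIs in 49 nuclei, 9.69 CPM (1.17 to 35.0), and its ratio to the other macrophage-like nuclei was 0.0398 (0.00481 to 0.144). At least 2-fold lower there were 14.8% of genes. Within well 2, state 7 was 2.28-fold (1.58 to 3.22) above the rest. Nuclei of well 2 with F13a1 had Mmp14 at 59.8 CPM and those without at 193 CPM, a ratio of 0.310 (0.199 to 0.466). State 10, which F13a1 helped to name, held 1022 of the 1632 macrophage-like F13a1 UMIs of well 2. Against the other macrophage-like nuclei of well 2, Mmp14 was 0.653 (0.443 to 0.940) in state 4, with F13a1 at 782 CPM. In state 5, with F13a1 at 1296 CPM, it was 1.30 (0.889 to 1.86).

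Mmp2 was counted in few nuclei of any state. State 9 had 8 UMIs (27.2 CPM, 11.8 to 53.7), state 2 had 21.5 CPM and state 1 had 21.0 CPM, with overlapping intervals, and the ratio of state 9 was 2.42 (0.981 to 5.23), where 4.8% of genes were at least 2-fold higher. State 10 held no Mmp2 UMI.

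Timp3 also reached 2-fold in a macrophage state. State 3 held 11 of the 25 macrophage-like Timp3 UMIs, at 22.5 CPM (11.3 to 40.3), a ratio of 5.56 (2.28 to 13.2) where 6.23% of genes were at least 2-fold higher, and 4.57 (1.80 to 11.6) within well 1. The 10 epithelial markers stood at 670 CPM in state 3 and at 416 CPM over all macrophage-like nuclei, and their part in this ratio was not tested.

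Timp2 had its highest level in resident-like state 10, at 1061 CPM (925 to 1211; 219 UMIs), where 83.7% of nuclei carried it. Thinned to 1000 UMIs the share was 51.0% (36.3 to 65.6), against 15.1% (13.1 to 17.3) over all macrophage-like nuclei. The other states lay between 84.0 CPM (60.3 to 114) in state 3 and 295 CPM (235 to 366) in state 5. State 10 exceeded the other macrophage-like nuclei 6.73-fold (5.74 to 7.88), where 15.1% of genes were at least 2-fold higher, and the other macrophage-like nuclei of well 2 by 4.93-fold (4.07 to 5.97). Nuclei of well 2 with F13a1 had Timp2 at 576 CPM against 217 CPM without, a ratio of 2.66 (2.18 to 3.25). Mrc1, the mannose receptor, gave 2.33 (1.90 to 2.86). States 4 and 5 of well 2, which also carried F13a1, had Timp2 ratios of 0.324 (0.239 to 0.433) and 0.892 (0.685 to 1.15) to the other macrophage-like nuclei there.

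**Figure D4:**
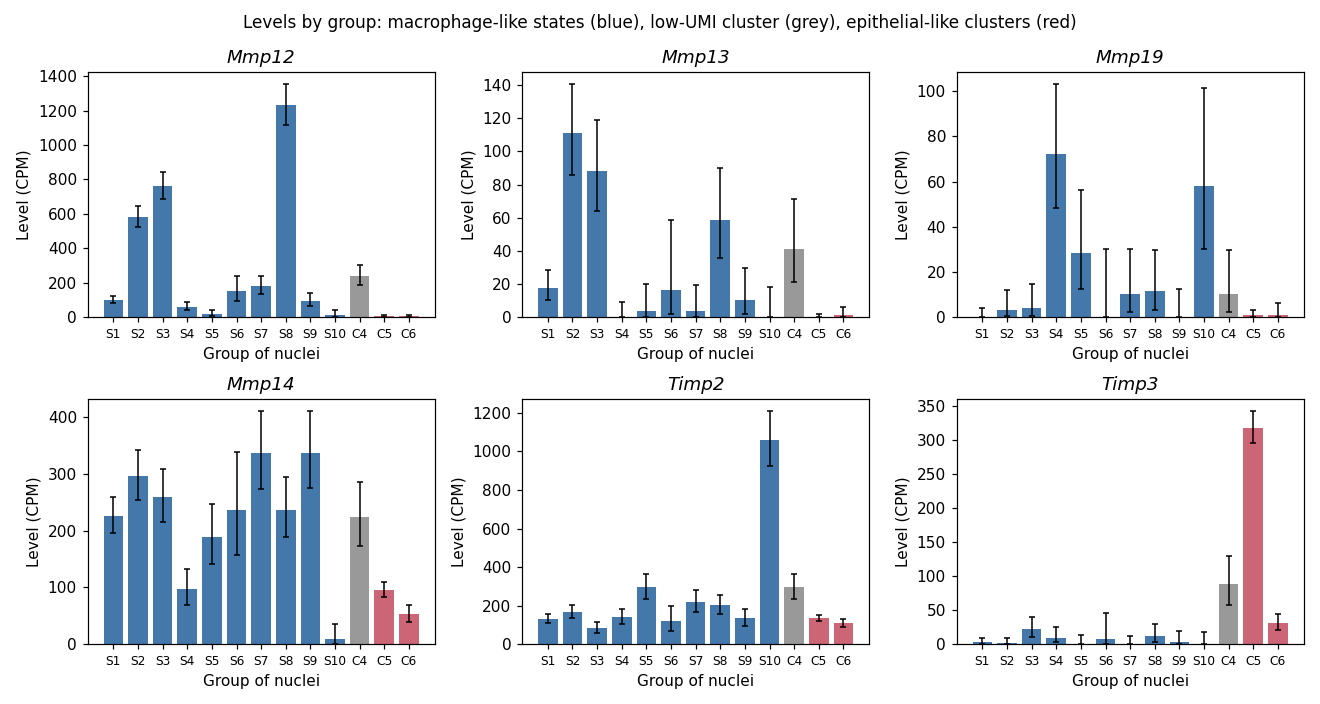
Levels in CPM (linear axes from 0) of 6 of the genes in the 10 macrophage-like states (S1 to S10, blue), the low-UMI cluster 4 (grey) and epithelial-like clusters 5 and 6 (red); error bars are exact 95% Poisson intervals. Mmp12 peaks in S8 at 1235 CPM, Timp2 in S10 at 1061 CPM and Timp3 in C5 at 318 CPM, while Mmp14 is spread over most states.

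The balance of Timp2 to Mmp14 differed by state and by well. State 10 had 219 Timp2 UMIs for 2 Mmp14 UMIs. State 3 had 0.325 Timp2 UMIs per Mmp14 UMI (0.223 to 0.466) and state 9 had 0.404, while states 5 and 4 had 1.57 and 1.44. Epithelial-like nuclei had 1.56 (1.33 to 1.83). The ratio was 0.497 (0.437 to 0.564) in macrophage-like nuclei of well 1 and 2.50 (2.10 to 3.00) in those of well 2. Timp2 and Mmp14 UMIs of state 5 were 9 and 13 in well 1, and 74 and 40 in well 2. State 7 had 26 and 54, then 38 and 44, and state 8 had 19 and 42, then 51 and 39. State 4 held only 3 and 1 in well 1, and state 6 only 3 and 4 in well 2. The pooled values of states thus also carry the wells they lie in. The genes differ in length, so these ratios compare groups of nuclei and not the abundance of the 2 genes.

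**Figure D5:**
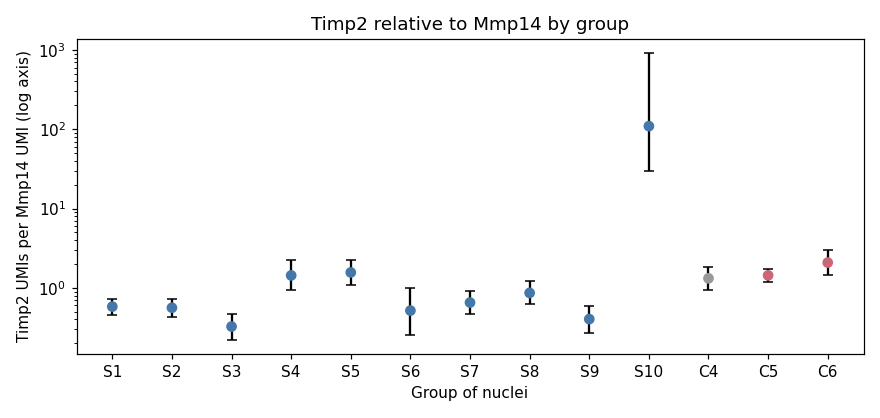
Timp2 UMIs per Mmp14 UMI (log axis) in the 10 macrophage-like states (S1 to S10), cluster 4 and epithelial-like clusters 5 and 6, with exact 95% intervals. S10 stands at 219 UMIs to 2, and the other groups lie between 0.325 and 2.09.

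Timp3 in epithelial-like nuclei was concentrated in cluster 5, at 318 CPM (295 to 342; 216 nuclei), and was 31.2 CPM (20.7 to 45.1) in cluster 6 (51 nuclei, all of well 1), a ratio of 10.2 (6.98 to 15.4). Mmp14 was 95.3 against 52.4 CPM (ratio 1.82, 1.32 to 2.55) and Timp2 137 against 109 CPM (1.25, 0.995 to 1.59). Few nuclei carried most of the Timp3: the 27 richest held 85.9% of its UMIs, and 1 nucleus of 97624 UMIs held 176. The deepest 27 nuclei held 37.7% of Timp3 UMIs and 47.7% of all UMIs of the class. The 19 nuclei with at least 10 Timp3 UMIs had epithelial markers at 4559 CPM, close to the 4183 CPM of the 196 nuclei with none, fibroblast markers at 180 against 33.4 CPM, and basal epithelial markers at 289 (240 to 346) against 87.9 CPM. The part of these markers' cells in the Timp3 level was not tested. Kit, which marked a subset of these tumour nuclei, went with less Timp3: 90.7 CPM with Kit and 299 CPM without, a ratio of 0.303 (0.239 to 0.381).

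Of 49 other genes of this proteolytic system, 48 were in the matrix and 26 had at least 20 UMIs. In macrophage-like nuclei 10 were at least 2-fold higher, 13 at least 2-fold lower and 3 between, where 16.4% of all genes counted were higher and 29.7% lower. Among 16 other metalloproteinases in the matrix only Mmp15, a membrane-type enzyme, was counted, with a ratio of 0.0404 (310 epithelial UMIs). Reck, a membrane-anchored inhibitor, stood at 0.0122. Plau (urokinase), which starts plasmin formation, had a ratio of 66.7 (38.0 to 129), and its receptor Plaur had 19.4. Plau was highest in state 3, at 816 CPM. Lrp1, a receptor that clears proteases and inhibitors, stood at 14.2, Adam17, which Timp3 can block, at 5.32, and Adam8 at 21.1. Among 9 substrates, the 8 collagen, elastin and laminin genes were lower, and Fn1 (fibronectin) was 7.33-fold higher, with its peak in state 4 at 1517 CPM.

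Genes most like each member across the 13 groups, by Pearson's r on log2(CPM + 10) among 6545 genes, were named by rule, as a description. For Mmp12 they were Tent5c (0.95), Plau (0.94), Rgs1, Wsb1 and Rab20. For Mmp13 they were Il1a (0.91), Mmp12 and Rab20 among the first 3. Myh9 (0.96) and Cadm1 were the nearest to Mmp14, Rab11a (0.90) and Rab11fip5 to Timp2, and Dgki (0.96) and Cdon to Timp3. The groups share libraries and differ in depth.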

How the data were processed

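Single-nucleus RNA of 2 samples was deposited by the authors as 1 matrix of UMI counts per gene and barcode, made with Cell Ranger 5.0 on mm10, per the submitters' processing notes (the matrix header, per the file headers, names version 5.0.1). The sources used here do not give intron or strand settings. The 2 wells could not be mapped to samples, so no test, p-value or genotype comparison was made.

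Nuclei with under 500 UMIs, under 300 genes or over 5% mitochondrial UMIs (21 barcodes) and Scrublet doublets (0 in well 1, 5 in well 2) were removed; undetected doublets may remain. Counts were scaled to 10000 and log-transformed, and 2000 variable genes, without the 9 members and the 49 pathway genes, gave 30 principal components, 15 neighbours and Leiden clusters (resolution 0.5; 1.0 for macrophage-like nuclei; scanpy 1.11.5, igraph 0.11.9, Python 3.11.15). A marker counted for a cluster from 5 UMIs, 20 CPM and 0.5 of its highest cluster level, and 3 markers named a type. A state was named where over 0.5 of a list counted and its summed level was at least 2-fold that of other macrophage-like nuclei. This scoring was set after clusters had been seen.

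Levels are CPM of summed counts, with exact Poisson intervals; ratios have conditional binomial and shares Clopper-Pearson intervals. A member was counted from 20 UMIs, and 3 counts were the floor for a level of 0. Members and lists were chosen with earlier results of these data known: F13a1 was put in the resident list, and Kit and Ebf1 were left out of the mast and B-cell lists. Named genes were all members, pathway genes with at least 20 UMIs, and the 5 most like genes per member with at least 100 UMIs. A first look scaled each gene to unit variance and used another seed; scaling is kept as an alternative. The values of 1 pathway gene are not reported here. Scripts were tested on simulated data. Alternatives changed the resolution, gene ranking, seed, filters, weighting of nuclei, depth, well and minimum.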

Additional observations from a re-analysis of the deposited data

How the results depend on the processing

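Over 17 alternatives, the number of members at least 2-fold higher in macrophage-like nuclei was 3 or 4 (4 in the report). The number at least 2-fold lower was 1 except with well 2 alone, where it was 2 (Mmp2 joined Timp3). The number at least 2-fold higher in a macrophage state was 6 in the report, 3 with well 1 alone, and 3 without well 2 and the low-depth state, an alternative chosen after seeing the data; it was 4 to 7 under the others. Without the 2 nuclei of state 2 richest in Mmp13, also chosen after seeing the data, the Mmp13 ratio of that state went from 4.31 to 0.587, because those nuclei held 58 of its 67 UMIs. Without the 4 nuclei richest in Mmp13, likewise chosen, the ratio of Mmp12 with to without Mmp13 in well 1 went from 10.6 to 6.18.

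The Timp3 ratio between classes stayed between 0.0138 and 0.0342. The Mmp12 ratio ranged from 8.11 to 79.0, the Mmp14 ratio from 1.25 to 3.77, the Timp2 ratio from 1.06 to 2.34 and the Mmp2 ratio from 0.0398 to 5.44. Mmp19 fell to 1.06 in thinned counts, a value set by the floor of 3 counts. No paired analysis was possible because the 2 samples are pooled in 1 matrix and no test was run. Timp1 and Mmp9 had too few UMIs to be counted.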
